A study of Homo sapiens with 14 samples.

Results

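The 36 genes described here encode aminoacyl-tRNA synthetases, the enzymes that join each amino acid to its matching transfer RNA. Members were taken by name from GENCODE release 29 (GRCh38), and every called RNA site on the strand of one of these genes was kept. Of the 58780 annotated genes, 6000 held a called site on their strand in at least 1 library, and 24 of the 36 synthetase genes were among them. The group has 20 cytosolic enzymes and 16 mitochondrial enzymes, the latter with a symbol ending in 2. Together they held 56 distinct sites and 81 calls, out of 22358 distinct sites and 46372 calls in the whole series.

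The study compared a prime editor with a cytosine base editor for base changes in cellular RNA. All 14 libraries came from 293FT, an established human embryonic kidney line, and each title carries the name hRNF2. The treatment labels give hA3A-BE3 (3 libraries), PE3 (2 libraries), Cas9 (3), EGFP (3) and non-transfection (3), and the last 3 groups were pooled as 9 control libraries. hA3A-BE3 is a base editor in which human APOBEC3A, a cytidine deaminase that can also act on RNA, is tied to a Cas9 nickase. PE3 pairs a nickase fused to reverse transcriptase with a guide that carries the template for the edit and an extra nicking guide. Per the labels' protocols, cells in the top 15% of fluorescence were sorted 40 h after transfection. A library of a transfected group therefore describes strongly transfected cells of 1 line. The labels do not tell what the non-transfected cells were sorted on, or whether replicates were grown apart. The p-values below therefore speak only of variation among these libraries, some of which may be technical. Between 3.26 Gb (PE3 replicate 2) and 10.6 Gb (Cas9 replicate 3) of mapped bases stood behind a list, and the hA3A-BE3 libraries had 7.27, 5.87 and 8.87 Gb.

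Each synthetase activates its amino acid with ATP and passes it to the tRNA, and many of them proofread the product. Several cytosolic enzymes, among them those for glutamine, leucine, isoleucine, methionine, lysine, arginine and aspartate and the joint glutamate and proline enzyme, sit with scaffold proteins in the multi-synthetase complex. The mitochondrial enzymes are encoded in the nucleus, made in the cytosol and imported, and they charge the tRNAs that translate the mitochondrial genome. GARS and KARS each serve both compartments from 1 gene and were counted as cytosolic.

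A C-to-U site was counted as recurrent when each of the 3 hA3A-BE3 lists held it and none of the other 11 lists did. The synthetase genes held 7 such sites among 38, each in a different gene, and over all genes 10.2% of 10353 hA3A-BE3 sites were recurrent. The 7 sequences are shown because the results turn on them. Each line gives 21 bases of the spliced transcript, 5' to 3', from GENCODE release 29, with T standing for U. Capitals mark the edited cytosine and the base just before it.
QARS I448I: gtgactccaTCgagcacatca
FARSB I237I: ctcccatcaTCaatggggatc
IARS2 3' UTR: acagctcacTCgagcaagaac
YARS I502I: aggagtgcaTCgcacagtgga
LARS L1027L: tatagtctaTCtgactaattc
RARS2 R6C: gtgcggcttTCgccgcgctat
FARSA I353I: acttctccaTCgaccgcgtat
In all 7 a uracil came just before the edited cytosine, a pair written UpC. In 4 of them, QARS, FARSB, YARS and FARSA, the cytosine was the third base of an isoleucine codon, and the change left isoleucine in place. Protein changes are written with the reference residue, its position in the reference transcript's protein and the new residue, with X for a stop.

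The 3 sites that made a stop codon are shown in the same way, although none was recurrent. They were chosen for display after their values were seen.
LARS2 Q738X: cgtcatctcTCaggtgaccac
QARS R419X: tgtagcctaTCgagtcaagta
YARS Q188X: aggcattgaTCagagaaagat
These cytosines too followed a uracil, and each was the first base of its codon.

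C-to-U sites in the synthetase genes were listed in the hA3A-BE3 libraries and in no other library. The lists held 13, 21 and 27 of them in hA3A-BE3 replicates 1, 2 and 3, a mean of 20.3 ± 7.02 (SD, n = 3). Each of the 9 control libraries and both PE3 libraries listed 0. Per Gb of mapped bases the hA3A-BE3 libraries had 1.79, 3.57 and 3.04 sites, and replicate 2 rather than replicate 3 was highest on that scale. The synthetase genes took a small share of the C-to-U calls over all genes. That share was 0.520% of 2499, 0.411% of 5113 and 0.419% of 6446 calls. The control libraries and PE3 still listed 42 to 53 C-to-U sites each over all genes. A site missing from a list may be unedited, uncovered or under the limits of the list, so a missing site is not a level of 0. Those limits are not named. The lowest listed values were 2 mutated reads, an edited fraction of 5.02% and 3.01 reads per Gb.

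**Figure D1:**
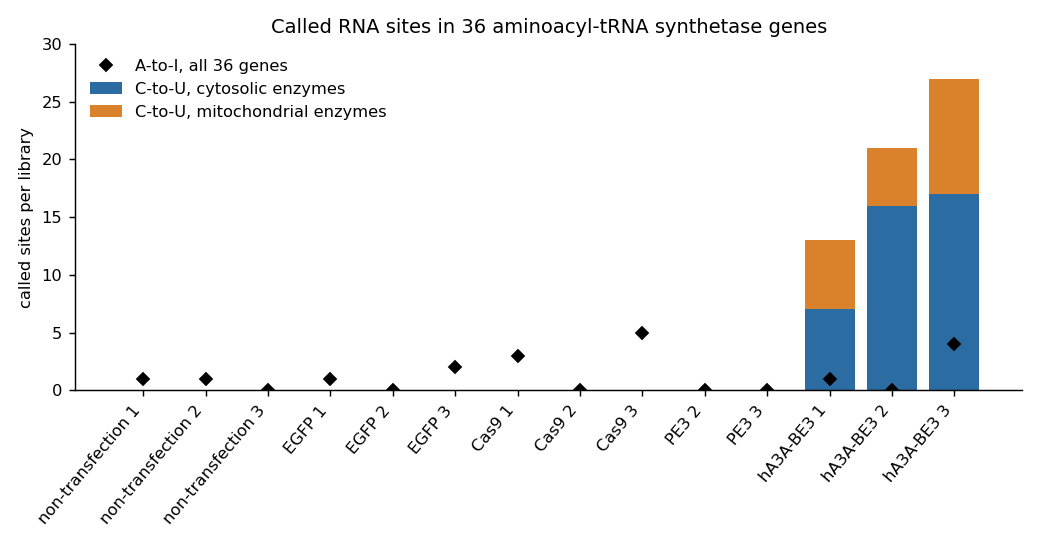
Bars show the number of called C-to-U sites in the 36 synthetase genes in each of the 14 libraries, stacked by cytosolic and mitochondrial enzymes, and diamonds show the number of A-to-I sites. The bars reach 13, 21 and 27 in the hA3A-BE3 libraries and are at 0 in the other 11, where the diamonds lie between 0 and 5.

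The 61 C-to-U calls fell on 38 distinct sites in 21 of the 36 genes (58.3%). Among annotated protein-coding genes, 24.4% of 19969 held a C-to-U site in an hA3A-BE3 library, but the lists do not tell how many of those genes had too few reads for a site to be called. Among genes with any called site, 83% of 6000 held one, beside 21 of the 24 synthetase genes with any site. Of the genes without C-to-U sites, IARS and TARS held only A-to-I sites and RARS held only a G-to-A site. No site of any kind was called in 12 genes. These were the cytosolic CARS, NARS, VARS and WARS, which charge cysteine, asparagine, valine and tryptophan, and the mitochondrial AARS2, EARS2, FARS2, MARS2, NARS2, PARS2, SARS2 and VARS2.

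The number of C-to-U sites per gene was tested between hA3A-BE3 and the 9 controls by a two-sided exact permutation test of mean log2(sites + 1), with Benjamini-Hochberg adjustment over all 5042 genes that had a site. Over all genes, 1267 (25.1%) had more sites in hA3A-BE3 at adjusted p under 0.05, and 0 had fewer. Of the 21 synthetase genes tested, 7 had more sites, QARS, FARSB, FARSA, RARS2, YARS, IARS2 and LARS. All 21 entered the test through hA3A-BE3 alone, with 0 sites in every control, so none could have had fewer. The 7 that passed are the genes with a recurrent site described above, and their count is no further evidence. For each of the 7 the exact permutation p was 0.00909, the smallest that 220 assignments allow, and the adjusted p was 0.0362. The differences in mean log2(sites + 1) ranged from 1.00 for IARS2 and LARS to 1.53 for FARSB and 1.59 for QARS. With 1 hA3A-BE3 library left out the test has 2 libraries against 9, its smallest p is 0.0364, and none of the 7 genes passed, with adjusted p of 0.0766 without replicate 1, 0.101 without replicate 2 and 0.102 without replicate 3. Over all genes, 0 passed in these fits as well. At that smallest p the adjusted p could pass only if most genes reached it. Counting only sites edited at 10% or more, 0 of the 7 passed. QARS, FARSB and IARS2 kept the exact permutation p of 0.00909 there, and their adjusted p over 3194 genes was 0.0503.

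The other 14 genes did not pass. AARS, which charges alanine, had a mean of 2.00 sites per hA3A-BE3 library and a log2 difference of 1.33, but replicate 1 listed none and the adjusted p from the exact permutation test was 0.171. CARS2, EPRS, GARS, LARS2, MARS, TARS2, WARS2 and YARS2 had the same adjusted p of 0.171, with a site in 2 of the 3 libraries. DARS, HARS, HARS2, KARS and SARS had a site in 1 library and an adjusted p of 0.511.

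QARS, the cytosolic glutaminyl-tRNA synthetase, held the most highly edited site. QARS spans 3:49095932-49105135 on the minus strand, and the recurrent site is at 3:49099805 in its coding sequence. The edited fraction of I448I was 44.1% of 111 covering reads, 56.6% of 76 and 45.1% of 153 in replicates 1, 2 and 3. The mean was 48.6% ± 6.92 (SD, n = 3). The exact 95% binomial intervals of the 3 libraries, 34.7% to 53.9%, 44.7% to 67.9% and 37.1% to 53.3%, overlapped. QARS also carried I284I at 5.74% of 122 reads in replicate 1 and 9.77% of 133 reads in replicate 3, and R419X at 6.49% of 77 reads in replicate 2. Within 1 transcript, then, the listed levels ran from near the lower limit of the lists to above 50%.

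The cytosolic phenylalanyl-tRNA synthetase is built from the catalytic alpha subunit FARSA and the beta subunit FARSB, and both genes held a recurrent isoleucine site. FARSB I237I, at 2:222633203 on the minus strand (gene 2:222570536-222656337), was edited at 20.3% of 128 reads, 46.1% of 102 and 42.9% of 119. Replicate 1 was low there, and its 95% interval of 13.7% to 28.3% did not reach those of replicate 2, 36.2% to 56.2%, and replicate 3, 33.8% to 52.3%. The mean of FARSB I237I was 36.4% ± 14.04 (SD, n = 3), the widest spread among the 7 sites. FARSA I353I, at 19:12924775 on the minus strand (gene 19:12922479-12934037), stood at 5.71% of 70 reads, 6.45% of 62 and 12.2% of 82, a mean of 8.12% ± 3.55 (SD, n = 3). With 4 mutated reads in each of the first 2 libraries, FARSA no longer passed the exact permutation test when at least 5 were required, at an adjusted p of 0.183. The 2 subunits thus shared the kind of site but not its level. FARSB also had an intronic site at 2:222646942, 15.4% in replicate 2 and 14.8% in replicate 3, and L497F at 9.92% of 131 reads in replicate 3. FARSA had I400I at 5.81% in replicate 2 and F207F at 6.33% of 158 reads in replicate 3.

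YARS and LARS held the other recurrent sites among the cytosolic enzymes. YARS charges tyrosine and carries a C-terminal domain related to the cytokine EMAP II. YARS I502I, at 1:32776062 on the minus strand (gene 1:32775237-32818153), was the deepest of the 7 sites, at 7.43% of 269 reads, 9.91% of 212 and 15.5% of 309. The 3 values gave a mean of 10.96% ± 4.15 (SD, n = 3), with replicate 3 the highest. YARS Q188X was called in replicate 3 alone, at 5.32% or 15 of 282 reads. LARS charges leucine and has been described as a leucine sensor for mTORC1. LARS L1027L, at 5:146123999 on the minus strand (gene 5:146113038-146182660), stood at 5.96% of 151 reads, 12.99% of 154 and 12.4% of 217, a mean of 10.46% ± 3.91 (SD, n = 3). The LARS change fell on the first base of a leucine codon, CTG, and kept leucine.

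IARS2 and RARS2 were the mitochondrial enzymes with a recurrent site. IARS2 charges mitochondrial isoleucine tRNA. Its site at 1:220147651 on the plus strand lies in the 3' UTR (gene 1:220094102-220148041) and was edited at 31.8% of 107 reads, 40.2% of 82 and 35.3% of 153. The mean of 35.8% ± 4.25 (SD, n = 3) was close to that of FARSB, with a narrower spread. RARS2 charges mitochondrial arginine tRNA. RARS2 R6C, at 6:87589942 on the minus strand (gene 6:87514378-87590003), replaced arginine by cysteine at codon 6, near the N-terminus, where imported proteins commonly carry their targeting signal. R6C was the missense change among the 7 recurrent sites, at 6.38% of 47 reads, 10.53% of 38 and 8.33% of 60, a mean of 8.41% ± 2.07 (SD, n = 3). It rested on 3, 4 and 5 mutated reads, and RARS2 no longer passed the test when at least 5 mutated reads were required, with an adjusted p of 0.183. RARS2 F556F was called in replicate 1 alone, at 15.8% of 38 reads.

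**Figure D2:**
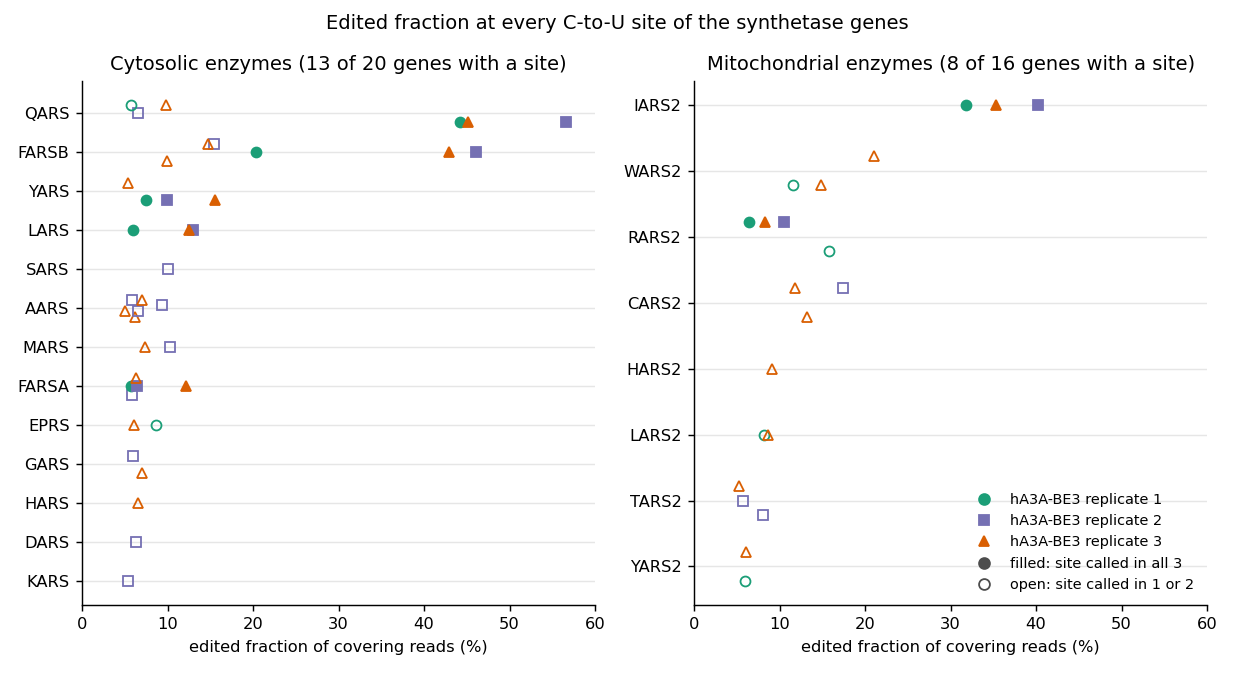
Each mark is 1 call of a C-to-U site, placed by its edited fraction in percent of covering reads (horizontal axis) and by gene (vertical axis), with cytosolic and mitochondrial enzymes in separate panels, shape and colour for the hA3A-BE3 replicate, and filled marks for sites called in all 3 libraries. The filled marks of QARS, FARSB and IARS2 lie between 20.3% and 56.6%, and most open marks lie under 10%.

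Sites called in fewer libraries had lower levels. The 22 sites called in 1 library had a median edited fraction of 6.41%, the 9 sites called in 2 libraries 8.41%, and the 7 recurrent sites 10.96%. A call needs the edited fraction to pass the limit in each library, so a higher level and a call in more libraries go together by construction. The sites called once came from replicate 1 for 2 sites, replicate 2 for 9 and replicate 3 for 11. The highest level at a site called once was 21.1% in the 3' UTR of WARS2 (1:119031425), on 4 of 19 reads, with an exact 95% interval of 6.05% to 45.6%. Another site in the WARS2 3' UTR (1:119031394) was called at 11.5% of 26 reads in replicate 1 and 14.8% of 27 in replicate 3.

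Changes to the protein were fewer than silent ones. Of the 38 sites, 28 (73.7%) changed a coding base, 8 (21.1%) were in a 3' UTR, 2 (5.26%) were intronic and 0 were in a 5' UTR. The shares over all hA3A-BE3 C-to-U sites were 69.9% coding, 25.2% in 3' UTRs and 1.08% in introns. Of the 28 coding sites, 17 (60.7%) were synonymous, 8 (28.6%) missense and 3 (10.7%) stop changes. The shares over all coding sites were 49.6%, 35.5% and 14.8%. Isoleucine codons that kept isoleucine held 11 of the 28 coding sites (39.3%), against 29.2% over all coding sites and 40.7% over all recurrent ones. No test was made of these shares, since the genes were chosen with earlier results of these data known.

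LARS2 Q738X was the stop change called in more than 1 library. LARS2 charges mitochondrial leucine tRNA, and the site lies at 3:45518070 on the plus strand (gene 3:45388506-45549421). It was edited at 8.20% of 61 reads in replicate 1 and 8.62% of 58 in replicate 3, on 5 mutated reads each, and was not listed in replicate 2. The exact 95% intervals, 2.72% to 18.1% and 2.86% to 19.0%, were wide at this depth. The 8 missense changes were called in 1 library each with the exception of RARS2 R6C. In AARS these were R912W at 6.12% of 49 reads and S704F at 9.38% of 32. In the other cytosolic enzymes, FARSB had L497F, and DARS, which charges aspartate, had S238L at 6.25% of 64 reads. Among the mitochondrial enzymes, TARS2 had L10F at 8% of 50 reads and S64L at 5.77% of 52, and YARS2 had S313L at 5.97% of 67. The levels of these 7 changes were all under 10%.

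Silent sites outside the recurrent set were mostly in isoleucine and phenylalanine codons. AARS had I849I at 6.48% and 5.03% and I470I at 5.77% and 6.98% in replicates 2 and 3. MARS, the methionyl enzyme, had I425I at 10.3% of 146 reads and 7.31% of 219 in the same libraries. CARS2, the mitochondrial cysteinyl enzyme, had V215V at 17.4% of 23 reads and 11.8% of 34, again in replicates 2 and 3, and I353I at 13.2% of 38 reads in replicate 3. GARS, the glycyl enzyme, had F429F at 5.93% of 135 reads in replicate 2 and F409F at 7% of 200 in replicate 3, and YARS2 had I258I at 6.02% of 83 reads. In the 3' UTRs, EPRS was called at 8.62% of 116 reads and 6.04% of 149 in replicates 1 and 3, HARS at 6.49% of 77, HARS2 at 9.09% of 33 and KARS at 5.33% of 169. The HARS2 site also lies in another gene on the same strand, so its reads may belong to either. An intronic site of SARS, the seryl enzyme, was called at 10.0% of 50 reads in replicate 2.

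Cytosolic and mitochondrial enzymes were then compared within each hA3A-BE3 library. A C-to-U site was present in 13 of the 20 cytosolic genes (65.0%) and 8 of the 16 mitochondrial genes (50%), and a recurrent site in 5 (25.0%) and 2 (12.5%). Recurrent sites were held by 4.56% of all protein-coding genes, whatever their expression. Among genes with any called site they were held by 15.4% of 6000, beside 5 of 16 cytosolic and 2 of 8 mitochondrial synthetase genes. Exonic sites per kb of reference transcript were 0.111, 0.222 and 0.254 in the cytosolic set and 0.131, 0.109 and 0.219 in the mitochondrial set. The difference, cytosolic minus mitochondrial, was -0.0202, 0.113 and 0.0350 per kb, a mean of 0.0425 ± 0.0668 (SD, n = 3). The difference was smaller than its spread and changed sign between libraries. With sites edited at 10% or more its mean was -0.0221. Within a library, 30%, 55% and 50% of the cytosolic genes and 31.3%, 25% and 50% of the mitochondrial genes held a site. No test was made, because 3 paired libraries cannot give an exact two-sided sign-flip p under 0.25.

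At the median, the listed sites of the cytosolic enzymes were deeper and lower in level. The medians rest on 7, 16 and 17 cytosolic and 6, 5 and 10 mitochondrial sites in replicates 1, 2 and 3. A site listed in several libraries counts in each of them. The sites with the highest mean levels, QARS I448I and FARSB I237I, were cytosolic. The median C-to-U site of the cytosolic enzymes was covered by 122, 81.5 and 149 reads, and that of the mitochondrial enzymes by 54, 50 and 38. The cytosolic values were higher in all 3 libraries. The median edited fraction was 7.43%, 7.93% and 7.31% in the cytosolic set and 9.87%, 10.53% and 10.43% in the mitochondrial set, higher in the mitochondrial set in all 3 libraries. At fewer reads a site needs a higher fraction to reach a given number of mutated reads, and the part of depth in this difference was not tested. Stop and missense changes together made up 6 of 19 coding sites in the cytosolic set, and 4 missense changes and 1 stop of 9 in the mitochondrial set.

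**Figure D3:**
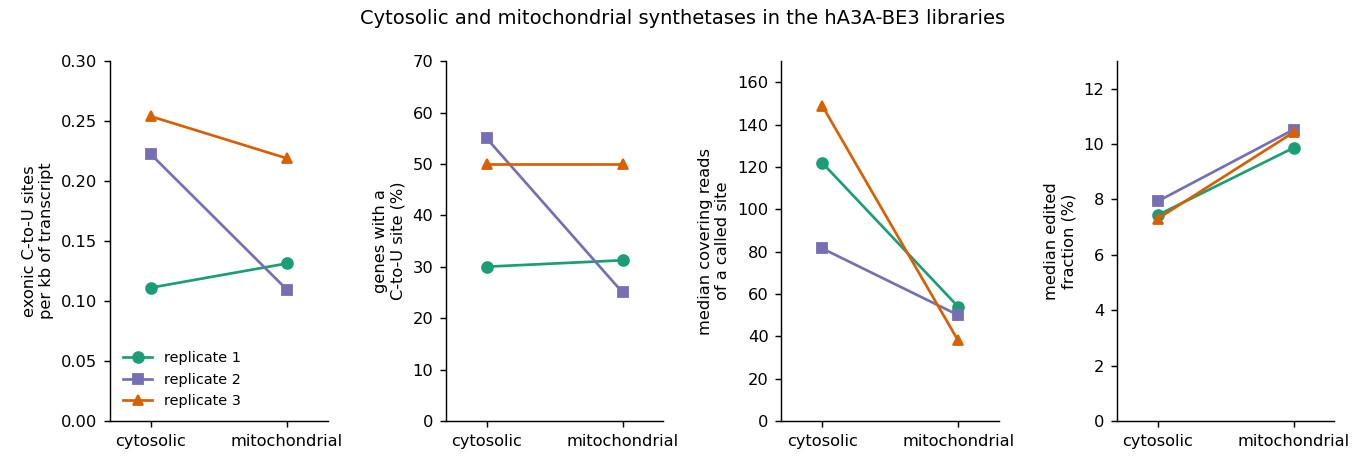
Each line joins the value of the cytosolic enzymes with that of the mitochondrial enzymes in 1 hA3A-BE3 library, for exonic C-to-U sites per kb of transcript, the percent of genes with a site, median covering reads and median edited fraction in percent. The lines run in both directions for sites per kb, fall for covering reads and rise for the edited fraction.

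The bases around the sites were read from the spliced reference transcripts, on the transcript strand only. Of the 36 exonic sites, 35 (97.2%) followed a uracil, against 95.3% of exonic hA3A-BE3 sites over all genes. The exception, in the TARS2 3' UTR at 5.26% or 2 of 38 reads, followed an adenine. APOBEC3A is known to prefer a cytosine after a uracil, and in RNA it is known to favour the last base of a short hairpin loop such as CAUC. The 36 reference transcripts held 6060 UpC cytosines away from their ends, and 35 of them (0.578%) were called. Those not called include genes without any site and may include cytosines with too few reads, so they are not all unedited. The cytosine ended CAUC (CATC in the sequences printed above) in 11 of 35 called sites (31.4%) and in 4 of 7 recurrent ones (57.1%), against 7.50% of the UpC cytosines not called. Those 4 are the isoleucine sites of QARS, FARSB, YARS and FARSA, so motif and codon are not separate observations there. The next base was G or A in 29 of 35 (82.9%), against 39.5% of those not called. Every recurrent site but that of LARS had such a base next.

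Pairing of the bases on each side of the site was counted, with G-U pairs allowed and no energy model. At least 3 pairs closed a loop of 4 bases with the cytosine last in 10 of 35 called sites (28.6%) and 3 of 7 recurrent sites (42.9%), against 5.49% of UpC cytosines not called. The recurrent sites with this arrangement were RARS2 with 7 pairs, IARS2 with 4 and QARS with 3. With the cytosine anywhere in a loop of 3 to 6 bases and at least 4 pairs, the shares were 45.7% and 71.4% against 28.7%, and FARSB had 6 pairs, LARS 5 and YARS 4. RARS2, with the most pairs, was edited at 8.41%, while QARS, with 3, was edited at 48.6%, so the number of pairs did not order the levels. Of the 463 cytosines ending CAUC, 2.38% were called, and of the 16 that also closed 3 pairs, 4 (25.0%) were called. These matches describe letters in the reference and were not tested, and the cytosines share their transcripts. Shares of the motif, next base and pairing are not given over all genes, so none is shown to be particular to the synthetases.

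**Figure D4:**
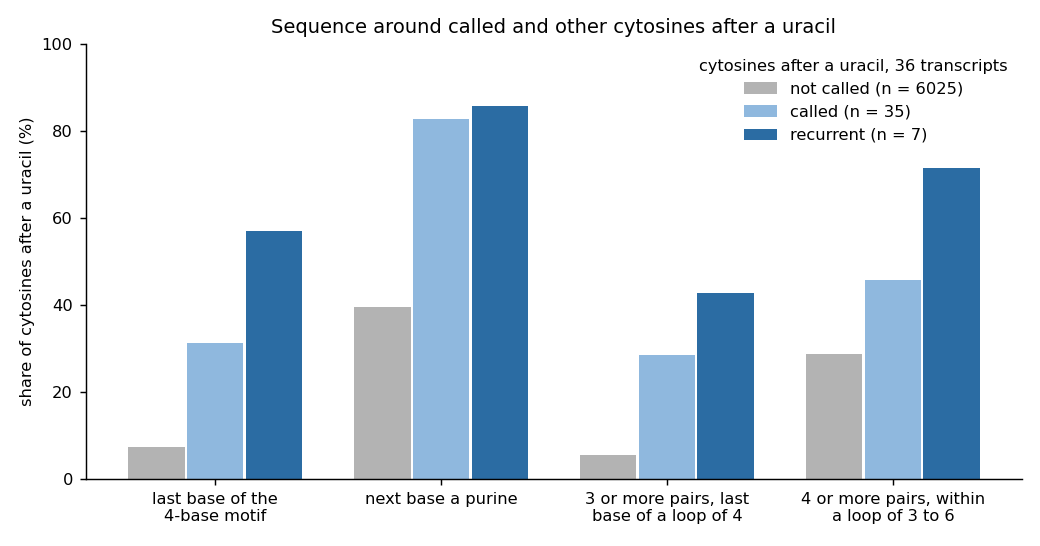
Bars give the percent of cytosines after a uracil in the 36 reference transcripts that have each of 4 features. The features are ending the 4-base motif given in the text, preceding a purine, and lying in a loop closed by complementary letters, by either count in the text. Bars are shown for cytosines not called, called in any hA3A-BE3 library and called in all 3. The called and recurrent bars stand above the bars of those not called in all 4 features, with 31.4% and 57.1% against 7.50% for the motif.

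A-to-I editing, the change made by the cell's own ADAR enzymes and read as A-to-G, was tested between hA3A-BE3 and the controls, and no gene passed. The synthetase genes held 18 A-to-I calls at 16 sites in 6 genes. Non-transfected cells listed 1, 1 and 0, EGFP 1, 0 and 2, Cas9 3, 0 and 5, PE3 0 and 0, and hA3A-BE3 1, 0 and 4. The controls had a mean of 1.44 ± 1.67 (SD, n = 9) and hA3A-BE3 1.67 ± 2.08 (SD, n = 3), and the ranges overlapped. The highest numbers, 5 and 4, came from Cas9 replicate 3 and hA3A-BE3 replicate 3, the libraries with the most mapped bases. Over all genes the exact permutation test per gene called 0 of 1491 (0%) after Benjamini-Hochberg adjustment, with 28 genes at an unadjusted p under 0.05, and 0 of the 6 synthetase genes tested were among either. With 220 assignments its smallest p is 0.00909, so the adjusted p could pass only if many genes reached it. The test therefore could not show a change limited to a few genes.

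Most A-to-I sites were intronic, 14 of the 16, and none was coding. IARS, the cytosolic isoleucyl enzyme, held 7 intronic sites, 5 of them in Cas9 replicate 3 and 2 in hA3A-BE3 replicate 3, with a highest level of 25.0% of 20 reads. TARS, the cytosolic threonyl enzyme, held 4, and the TARS site at 5:33464056 was called at 16.7% of 18 reads in EGFP replicate 1 and 14.3% of 21 in Cas9 replicate 1. The LARS site at 5:146145179 was called at 25.0% of 16 reads and 26.3% of 19 in non-transfected replicates 1 and 2. The 2 sites outside introns were neighbours in the 3' UTR of TARS2, at 5.36% and 7.27% in hA3A-BE3 replicate 3. AARS and YARS had 1 intronic site each, in EGFP replicate 3 at 14.3% of 14 reads and in hA3A-BE3 replicate 1 at 21.1% of 19 reads.

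In the PE3 libraries the synthetase genes held a single call, and it was not C-to-U. RARS, the cytosolic arginyl enzyme, carried the silent G-to-A change G334G at 5:168502050 in PE3 replicate 2, at 5.88% or 3 of 51 reads, with an exact 95% interval of 1.23% to 16.2%. The per-gene C-to-U test of PE3 against controls called 0 of 273 genes (0%), with 0 at an unadjusted p under 0.05 by the exact permutation test, and no synthetase gene had a site to test. With 55 assignments its smallest p is 0.0364, so the adjusted p could pass only if most genes reached it. PE3 replicate 2 had the fewest mapped bases of the 14 libraries. Among the controls, the change other than A-to-I was a T-to-C change in AARS, S256P at 16:70270246, called in EGFP replicate 2 at 5.41% or 4 of 74 reads.

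The proteins that work beside the synthetases were listed from general knowledge as 26 genes: scaffold proteins, elongation factors, proofreading and tRNA-handling enzymes, and sensors of uncharged tRNA. Of these, 13 held C-to-U sites in hA3A-BE3, 46 sites in all, and 4 of the 13 tested had more sites than controls by the exact permutation test at adjusted p under 0.05, with 0 lower, beside 25.1% of all genes tested. The partner list held 1 C-to-U site in a control or PE3 library, and the synthetase genes 0. All 13 partners tested held hA3A-BE3 sites, so almost none could have had fewer. The partners held 7 recurrent sites in 4 genes, as many genes as passed the test, so the number passing is little further evidence. EEF1A2, an elongation factor that delivers charged tRNA to the ribosome, had I345I at 49.3% ± 4.67 (SD, n = 3) over 245 to 312 reads. It also had I99I at 10.4% ± 2.66 (SD, n = 3) over 207 to 311 reads. EEF1A2 has a close paralog, EEF1A1, and whether the reads of the 2 genes were told apart was not tested. EEF1B2, a subunit of the exchange factor for that protein, had a 5' UTR site at 18.5% ± 9.62 (SD, n = 3). GCN1, which helps to sense uncharged tRNA on stalled ribosomes, had I702I at 12.7% ± 3.90, S1665L at 10.4% ± 1.49 and I299I at 6.93% ± 1.11 (SD, n = 3 each). AIMP2, a scaffold of the multi-synthetase complex, had T154M at 9.86% ± 3.85 (SD, n = 3). The recurrent levels of the partners ran from 6.93% to 49.3%, and those of the synthetases from 8.12% to 48.6%. Without EEF1A2 the highest partner level was 18.5%. No difference between the 2 sets was tested.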

How the data were processed

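Stranded total RNA depleted of ribosomal and globin RNA was read as pairs of 150 bases, per the labels' protocols. The submitters' processing notes name BWA 0.7.17, GRCh38 and hg38 without a role. No source used here names the caller or its filters. The authors deposited 1 headerless list of called sites per library. The deposited counts in it are the reads that cover a site, those carrying each base and the mutated ones. Deposited fraction columns divide the base counts by coverage and give the edited fraction. A deposited signal column equals a read depth divided by a constant per library, read here as mapped bases in Gb, an inference from the values. Listed sites had at least 2 mutated reads, an edited fraction of 5.02% and 3.01 reads per Gb, so low levels are cut off. PE3 replicate 1 was not analysed here.

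Strand was recovered by matching the fraction of each base to the edited fraction. All 17541 exonic sites, 40 of 40 in the synthetase genes, had the reference base of the GENCODE release 29 transcript. Regions and codons came from GENCODE, with 1 complete principal transcript per gene for lengths, context and pairing. T read for C is given as C-to-U, and G read for A as A-to-I. Groups came from the treatment labels. Sites per gene and library were compared as log2(sites + 1) by two-sided exact permutation tests, adjusted by Benjamini-Hochberg over all genes tested at 0.05, with Python 3.11.15, numpy 2.4.6, pandas 2.3.3 and scipy 1.17.1, and the procedure was tested on simulated data. Intervals are exact Clopper-Pearson intervals at 95% and cover counting error only, since reads are not independent molecules.

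The synthetase genes, the partner list, the tests and the alternatives were chosen with earlier results of these data known. Values were given for every gene with a recurrent site, a passed test, a C-to-U site in a control or PE3 library or a stop change in 2 or more hA3A-BE3 libraries, for up to 5 genes with the most A-to-I sites, and for up to 6 partners with a recurrent site by level. Other sites were named after their values were seen. Lists of 6 blood and 6 fibroblast markers had 0 called sites, which says nothing of expression. Alternatives were limits of 20 and 50 covering reads, a 10% edited fraction or 5 mutated reads, a linear scale, genes with a site in 3 libraries, a replicate block, sites of non-transfected cells left out, scaling per Gb, per UpC or by share of genes, GARS and KARS left out, and each library left out.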

Additional observations from a re-analysis of the deposited data

Results flagged for a closer look

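The G-to-A change G334G of RARS, in PE3 replicate 2, is a signal of a kind that no comparison above used. It stood at 5.88% of 51 reads there and was not listed in the other PE3 library or in any control library. It rests on 3 mutated reads, and its 95% interval begins at 1.23%.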

How the results depend on the processing

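The per-gene C-to-U test of hA3A-BE3 called 1267 genes, and 616 with at least 50 covering reads, 674 with at least 5 mutated reads and 0 at an edited fraction of 10% or more, where 584 had an unadjusted p under 0.05 by the exact permutation test. With a library left out it ranged from 0, without any one hA3A-BE3 library, to 1273, and the synthetase genes passing from 0 to 7. Of the 7 synthetase genes, 0 passed at an edited fraction of 10% or more. RARS2 was lost with 50 covering reads (adjusted p of 0.505), and RARS2 and FARSA with 5 mutated reads (0.183). With the replicate block, 0 genes and 0 synthetase genes passed, at a smallest adjusted p of 0.123, and 1280 had an unadjusted p under 0.05. The smallest p of that blocked exact permutation test is 0.0312, so its adjusted p could pass only if most genes reached it. Same-numbered libraries of different groups correlated at -0.0400 to 0.0966 in their C-to-U deviations. Their median was 0.0052, beside -0.0027 for other pairs, and for A-to-I the medians were 0.0354 and -0.0172. Correlations this low do not tell whether the numbers mark shared batches, which was not tested. Tests of PE3 and of A-to-I called 0 genes under every alternative run, although a few genes alone could not have passed. Restricting to protein-coding genes, added after seeing the data, left 1250 genes and 7 synthetase genes. At an edited fraction of 10% or more, the mean number of synthetase sites was 8.33 per library, the recurrent sites numbered 3 with a median level of 36.4%, and the cytosolic minus mitochondrial difference was -0.0221 per kb. With 5 mutated reads the median recurrent level was 35.8%, over 5 sites. With a hA3A-BE3 library left out, the recurrent sites numbered 7 to 12, as fewer libraries had to list a site. The causes of the other changes were not tested. Levels under 5.02%, the lowest listed fraction, could not be seen at any depth.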
